A study of Danio rerio with 8 samples.

Results

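Retinoic acid (RA), the vitamin A derivative that switches genes on through nuclear receptors, was followed in the zebrafish retina through 10 genes that make it, break it down, bind it in the cytoplasm or answer to it. The genes were the retinaldehyde dehydrogenases aldh1a2 and aldh1a3, the RA hydroxylases cyp26a1, cyp26b1 and cyp26c1, the cellular RA binding proteins crabp1a and crabp2a, and the RA receptors raraa, rarab and rarga. They were chosen by name: every array probe whose RefSeq accession belongs to 1 of these symbols was taken, which gave 23 of the 43601 probes tested and 10 of the 13143 genes that could be given a symbol. The study compared retinae of adult wild type zebrafish, males and females not distinguished, 3 days after crush of the right optic nerve with right retinae of intact fish that had no operation. Each group held 4 pools, and each pool held retinal RNA of 4 fish. Crush cuts the axons of every retinal ganglion cell (RGC), the neurons that project from eye to brain, and there was no sham-operated group. Total retinal RNA was measured on 8 one-colour arrays, and values are log2 of the background-corrected, quantile-normalised fluorescence signal of a probe.

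The pathway starts from retinol, which is oxidised to retinal and then by aldh1a enzymes to RA. RA enters the nucleus, where a dimer of an RA receptor (RAR) and a retinoid X receptor (RXR) on DNA turns from repressing to activating nearby genes. Cyp26 enzymes hydroxylate RA and so clear it, and cyp26a1 is itself switched on by RA in vertebrate embryos. In the developing zebrafish eye aldh1a2 is a dorsal and aldh1a3 a ventral retinal gene, and the same vitamin A supply feeds the visual cycle, in which the pigment epithelium returns the chromophore to photoreceptors.

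A probe was called changed at an absolute fold change of at least 1.5, which is 0.585 on the log2 scale, and a Benjamini-Hochberg adjusted p of at most 0.05 in limma over all probes. Of all probes 2.75% were called, 1.89% higher and 0.862% lower after crush. Median spot intensity was 153 to 194.5 on the 8 arrays over a local background of 17 to 19, and 72.5% to 84.0% of spots were well above background. Correlation between arrays was 0.979 to 0.986 among control pools, 0.985 to 0.991 among crush pools and 0.972 to 0.985 between groups. The 4 control arrays shared 1 slide and the 4 crush arrays a second one, and slide and injury therefore cannot be told apart in any value below. Of 7 measured RGC markers, 6 fell (isl2b, pou4f2, pou4f3, rbpms2a, rbpms2b and tbr1b), and the mean log2 signal over the RGC list was 11.06 to 11.39 in control pools and 9.66 to 10.10 in crush pools. In whole-retina RNA, fewer cells of a type and less RNA per cell cannot be told apart. Markers of photoreceptors (rods and cones), of bipolar, amacrine and horizontal neurons and of Müller glia were present in every pool, and none of these lists had a gene called. Lens crystallin and membrane markers had a mean log2 signal of 9.76 in control pool 1 and 5.96 to 7.46 in the other pools, and all 8 were lower after crush with a median of -1.10 and no overlap of that mean between groups. Skeletal muscle markers had 9.09 in control pool 3 and 7.18 to 7.76 elsewhere, and 5 of 6 were lower after crush. All 6 skin and cornea markers were higher after crush with a median of 0.54, at a mean of 7.47 to 8.67 in control pools and 8.19 to 9.48 in crush pools. No gene of these 3 lists was called. Of 5 measured red blood cell markers, 4 were lower after crush with a median of -0.56 and no call. Their mean was 9.04 to 10.36 in control pools and 8.38 to 9.72 in crush pools. The part of these other tissues in the results below was not tested.

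None of the 10 RA genes changed past the thresholds, beside 4.19% of all genes with a symbol that had at least 1 probe called. At the level of probes 0 of 23 were called, beside 2.75% of all probes, and adjusted p ran from 0.0646 to 0.993 in limma. At an unadjusted p of at most 0.05 there were 7 of 23 probes, beside 19.5% of all probes, and control and crush pools did not overlap on 5 of 23 probes (21.7%), beside 13.9% of all probes. The probes with an interval clear of 0 belonged to 4 genes, namely crabp2a with 4 probes higher after crush and aldh1a3, cyp26b1 and raraa with 1 probe each lower. Over all member probes 12 were higher and 11 lower in crush pools, with a median log2 fold change of 0.01 against -0.01 over all probes. Read from the brightest probe of each gene, 3 of 10 were higher, with a median of -0.30 against 0.01 over all genes. The precision differed between genes. For 6 probes (both of crabp1a, those of rarab and rarga, the dimmer raraa probe and 1 cyp26b1 probe) the whole 95% confidence interval lay inside a 1.5-fold change either way, and for the other 17 it reached past it. Of the 23 probes, 18 were well above background on all 8 arrays, 4 on some arrays and 1 on none. No probe sequences were used here, so whether a probe also binds the RNA of a close paralogue was not tested.

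**Figure D1:**
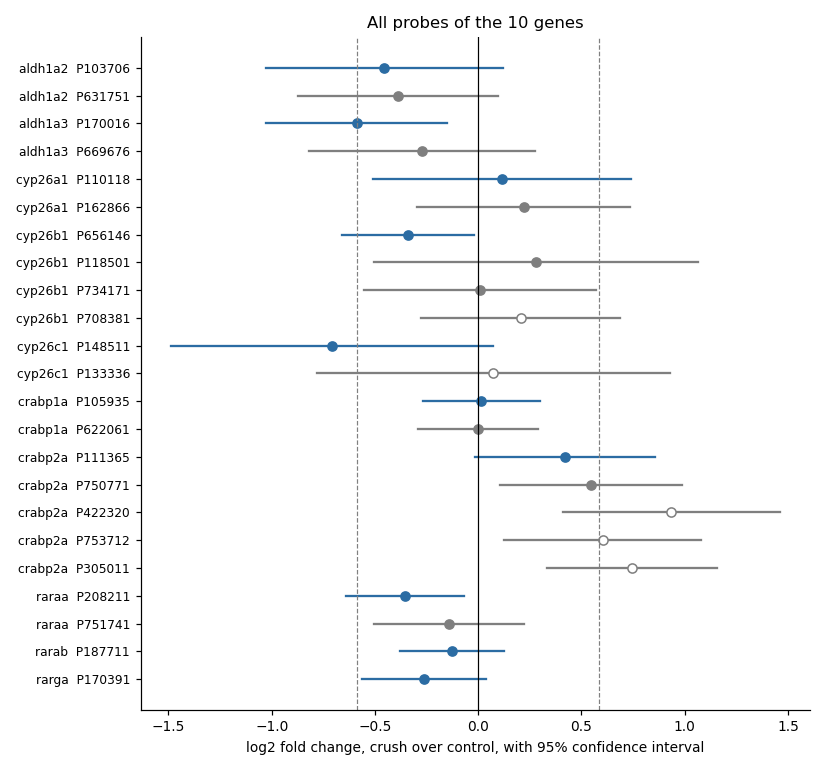
Log2 fold change (crush over control) of all 23 probes with its 95% confidence interval from limma, the brightest probe of each gene in blue, probes not well above background on every array as open circles (fitted estimates, not measured folds), and dashed lines at a 1.5-fold change. The crabp2a probes all lie to the right of 0, the aldh1a2, aldh1a3 and receptor probes to the left (rarab at 0.01 with median scaling), and the 3 open crabp2a circles are the dimmest probes of that gene.

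The synthesis side was lower in crush pools on every probe, with no call. Aldh1a2, the main RA-producing enzyme of vertebrate embryos, read 11.61, 10.50, 11.04 and 10.65 in control pools 1 to 4 and 10.34, 10.80, 10.67 and 10.18 in crush pools 1 to 4 on its brightest probe (A_15_P103706). The groups overlapped: control pool 1 stood above all others, and crush pools 2 and 3 exceeded control pools 2 and 4. The difference was -0.45 (SE 0.25, 95% confidence interval -1.03 to 0.12, adjusted p = 0.364 in limma). The other aldh1a2 probe (A_15_P631751) gave the same pool at the top, 10.51 in control pool 1 against 9.35 to 9.83 after crush and 9.55 in the lowest control pool, with a difference of -0.39 (SE 0.21, adjusted p = 0.355 in limma). Lens markers were lower in crush pools as well, and control pool 1 had the most of them. Their part in the aldh1a2 values was not tested. Without control pool 1, the highest control on both probes, the differences necessarily shrank, to -0.23 and -0.21. Without control pool 2, the lowest control on both, they necessarily grew, to -0.60 and -0.53.

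Aldh1a3, the second RA-producing dehydrogenase of the retina, was the synthesis gene with separated groups. Its brightest probe (A_15_P170016) read 8.28, 8.0, 8.07 and 7.88 in control pools and 7.73, 7.61, 7.64 and 6.90 in crush pools. All 4 crush pools lay below all 4 controls, and crush pool 4 lay far below the other crush pools. The difference was -0.59 (SE 0.19, 95% confidence interval -1.03 to -0.15) with an unadjusted p of 0.0144 and an adjusted p of 0.146 in limma. The dimmer probe (A_15_P669676) put the same pool at the other end: control pools read 6.19 to 6.35, crush pools 1 to 3 read 5.73, 5.81 and 5.61, and crush pool 4 read 6.77, the highest of all 8. Its difference was -0.27 (SE 0.24, adjusted p = 0.573 in limma). Without crush pool 4 the difference necessarily shrank on the brighter probe, to -0.40, and necessarily grew on the dimmer one, to -0.54 (adjusted p = 0.0576 in limma for the latter). When the 2 probes were averaged before the fit, the aldh1a3 difference was -0.43 (SE 0.08) with an adjusted p of 0.0236 in limma, past the p threshold and under the fold threshold. Averaging offset crush pool 4, the lowest pool on 1 probe and the highest on the other. The SE of the mean, smaller than the 0.19 and 0.24 of the single probes, thus hides their disagreement in that pool.

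**Figure D2:**
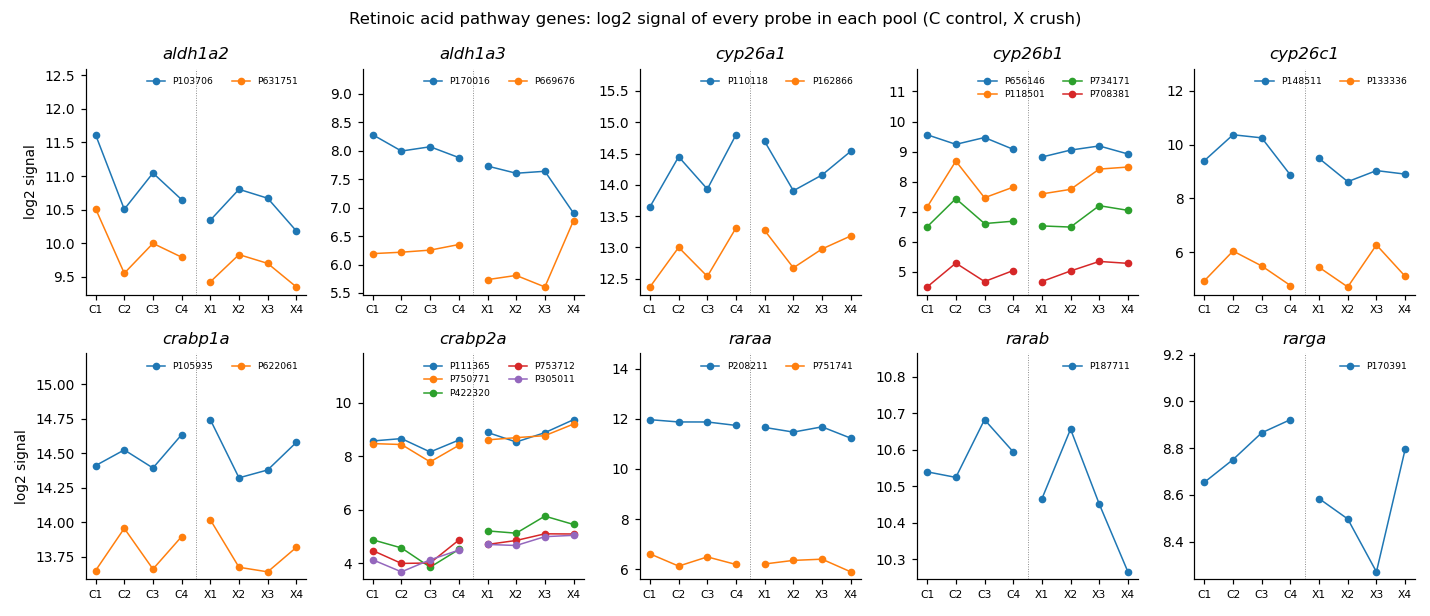
Log2 signal of every probe of the 10 genes in control pools (C1 to C4) and crush pools (X1 to X4), with a panel for each gene and an axis of its own; the lines only join the values of a probe, and pools have no order. Aldh1a2 peaks in C1 on both probes, the 2 aldh1a3 probes part in X4, and the crabp2a probes are higher on the right of their panel.

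The degradation side did not move together. Cyp26a1, the hydroxylase that RA induces in embryos, read 13.65, 14.45, 13.93 and 14.80 in control pools and 14.69, 13.91, 14.16 and 14.54 in crush pools on its brightest probe (A_15_P110118). The groups covered the same range, with the lowest and the highest pool both among the controls. The difference was 0.12 (SE 0.27, 95% confidence interval -0.51 to 0.74, adjusted p = 0.854 in limma), so that a 1.5-fold change upwards was not excluded by the interval. The second probe (A_15_P162866) ran from 12.37 to 13.31 in controls and from 12.67 to 13.27 after crush, with a difference of 0.22 (SE 0.23, adjusted p = 0.635 in limma).

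For cyp26b1, a second RA hydroxylase, the probes disagreed in sign. The brightest (A_15_P656146) read 9.56, 9.24, 9.47 and 9.08 in control pools and 8.82, 9.05, 9.19 and 8.92 in crush pools. Control pool 4 lay among the crush pools, and the difference was -0.34 (SE 0.14, 95% confidence interval -0.66 to -0.02) with an unadjusted p of 0.0385 and an adjusted p of 0.227 in limma. The other 3 probes differed by 0.28, 0.01 and 0.21 with adjusted p of 0.700 to 0.989 in limma, and on each of them control pool 2 or a crush pool was the highest. Of these, A_15_P118501 spread most, from 7.16 to 8.68 among control pools, and A_15_P708381 was well above background in only 1 control pool and 2 crush pools.

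Cyp26c1, the third hydroxylase, had the largest point estimate among the brightest probes of the 10 genes and also the widest interval among them. Its brightest probe (A_15_P148511) read 9.40, 10.36, 10.25 and 8.87 in control pools and 9.49, 8.62, 9.03 and 8.90 in crush pools. Control pools 2 and 3 stood above every crush pool, and control pool 4 lay below 3 of the 4 crush pools. Several genes of the pigment epithelium, described below, were also higher in control pools 2 and 3 than in control pools 1 and 4. The part of pigment epithelium in the cyp26c1 values was not tested. The difference was -0.71 (SE 0.34, 95% confidence interval -1.49 to 0.07, adjusted p = 0.297 in limma), and it ranged from -0.49 without control pool 2 to -0.99 without control pool 4. The dim probe (A_15_P133336), well above background in 2 control and 3 crush pools, differed by 0.07 (SE 0.38, adjusted p = 0.939 in limma).

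The 2 binding proteins differed in how they read. Crabp1a, a cytoplasmic RA binding protein, was steady. Its brightest probe (A_15_P105935) read 14.41, 14.52, 14.39 and 14.63 in control pools and 14.74, 14.32, 14.38 and 14.58 in crush pools. The groups overlapped fully, and the difference was 0.02 (SE 0.12, 95% confidence interval -0.27 to 0.30, adjusted p = 0.963 in limma), which bounds the change to less than 1.5-fold in either direction. The second probe (A_15_P622061) gave -0.00 (SE 0.13, 95% confidence interval -0.29 to 0.29).

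Crabp2a, whose mammalian counterpart carries RA to its nuclear receptors, was higher in crush pools on all 5 probes, with no call. Fitted differences were 0.42 to 0.93 with the processing used here. The brightest (A_15_P111365) read 8.57, 8.66, 8.16 and 8.61 in control pools and 8.89, 8.53, 8.88 and 9.37 in crush pools. Here crush pool 2 fell within the control range, and the difference was 0.42 (SE 0.19, 95% confidence interval -0.01 to 0.85, adjusted p = 0.271 in limma). On the next brightest (A_15_P750771) control pools read 8.47, 8.44, 7.79 and 8.41 and crush pools 8.61, 8.70, 8.77 and 9.21. All crush pools exceeded all controls there, with crush pool 4 the highest and control pool 3 the lowest, as on the brightest probe, and the difference was 0.54 (SE 0.19, 95% confidence interval 0.10 to 0.98, adjusted p = 0.174 in limma).

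The other 3 crabp2a probes were dim. A_15_P422320 read 4.87, 4.57, 3.84 and 4.51 in control pools, 1 of them well above background, and 5.20, 5.12, 5.76 and 5.44 in crush pools, all well above it. The groups did not overlap, and the difference of 0.93 (SE 0.23, 95% confidence interval 0.41 to 1.46) had an unadjusted p of 0.00316 and an adjusted p of 0.0685 in limma. The size depends on the processing: the fitted difference ran from 0.35 to 1.07 over the other settings and from 0.73 to 1.07 with a pool left out. With dim probes left out its adjusted p was 0.0477 where at least 4 arrays had to be well above background and 0.0434 where all arrays of a group had to be (limma), but it met both filters only through the crush pools, where it is high, so that this call gives no support. A_15_P753712 was well above background in no control pool and in 1 crush pool, read 3.99 to 4.86 in control and 4.70 to 5.09 in crush pools with overlap, and had an adjusted p of 0.166 in limma. A_15_P305011 was well above background on no array, read 3.67 to 4.48 in control pools and 4.66 to 5.04 in crush pools without overlap, and had an adjusted p of 0.0646 in limma, the lowest of the 23 probes. No fold is given for either of these. Without control pool 4, the highest control on both, the differences necessarily grew, and both probes passed the thresholds (adjusted p = 0.0497 and 0.0358 in limma). These calls therefore give no support. The mean of the 5 probes, dim ones included, differed by 0.65 (SE 0.16, adjusted p = 0.0548 in limma). Skin and cornea markers were also higher in crush pools, and their part in the crabp2a values was not tested.

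The receptors were lower in crush pools by less than a 1.5-fold point estimate, with no call and, for rarab, a turn of sign under median scaling. Raraa, an RA receptor alpha, read 11.97, 11.88, 11.88 and 11.74 in control pools and 11.66, 11.47, 11.68 and 11.23 in crush pools on its brightest probe (A_15_P208211). The groups did not overlap, although control pool 4 and crush pool 3 lay close together, and the difference was -0.35 (SE 0.13, 95% confidence interval -0.64 to -0.07) with an unadjusted p of 0.0214 and an adjusted p of 0.175 in limma. Its dimmer probe (A_15_P751741) overlapped and differed by -0.14 (SE 0.16, adjusted p = 0.675 in limma).

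Rarab, the second RA receptor alpha, read 10.54, 10.52, 10.68 and 10.59 in control pools and 10.47, 10.66, 10.45 and 10.27 in crush pools on its single probe. Crush pool 2 lay among the controls, and the difference of -0.13 (SE 0.11, 95% confidence interval -0.38 to 0.13, adjusted p = 0.574 in limma) turned to 0.01 when arrays were scaled to their medians. Rarga, an RA receptor gamma, read 8.65, 8.75, 8.87 and 8.92 in control pools and 8.58, 8.50, 8.27 and 8.79 in crush pools. Crush pool 4 exceeded control pools 1 and 2, and the difference was -0.26 (SE 0.13, 95% confidence interval -0.56 to 0.04, adjusted p = 0.320 in limma). The intervals of rarab and rarga stayed inside a 1.5-fold change, and that of raraa reached past it on the lower side.

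Some of the RA genes varied between pools of a group far more than most probes did. Over the 30310 probes well above background on all arrays, the median SD within groups was 0.195. The brightest cyp26c1 probe had an SD of 0.564, larger than 95.6% of those probes, cyp26a1 one of 0.444 (91.2%) and aldh1a2 one of 0.406 (88.9%). Receptors and crabp1a were the steady members, at 0.124 for rarab (19.1%), 0.158 for crabp1a (34.5%), 0.162 for raraa (36.5%) and 0.175 for rarga (42.0%). On the brightest probes, the pools highest for aldh1a2 were control pools 1 and 3 and crush pool 2, and these were the lowest for cyp26a1. Cyp26b1 was highest in control pools 1 and 3, as aldh1a2 was, on its brightest probe only. On none of its other probes were these pools the highest. On A_15_P118501 they read 7.16 and 7.47, below every other pool. Crabp1a was highest in crush pool 1, control pool 4 and crush pool 4, which were also the highest for cyp26a1, though over a range of 0.42 on the log2 scale against 1.15. These orders were read after the values were seen, were not tested, and share the arrays and their normalisation.

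**Figure D3:**
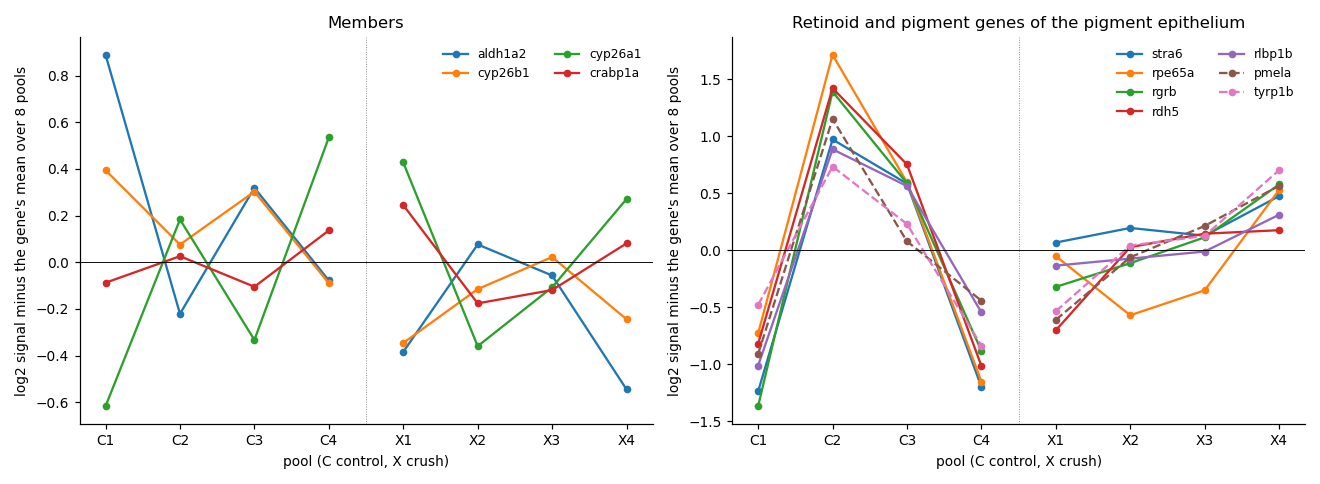
Log2 signal of the brightest probe minus the mean of that gene over the 8 pools, for 4 RA genes (left) and for retinoid genes (solid lines) and pigment genes (dashed lines) of the pigment epithelium (right), in control pools (C1 to C4) and crush pools (X1 to X4); lines only join values of a gene. Cyp26a1 is lowest in C1 where aldh1a2 is highest, and the genes drawn on the right are higher in C2 and C3 than in C1 and C4. Pmela in C3 lies only 0.08 above its mean.

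The wider retinoid pathway was read from 6 lists of 84 genes, 66 of them measured. Of these 66, 2 rose (hoxb5a and hoxb5b) and 0 fell, beside 3.02% and 1.19% of all genes with a symbol that had a probe called higher or lower. The median log2 fold change was -0.06 on the brightest probes, with 29 of 66 (43.9%) higher, against 0.01 and 51.4% over all genes. At the level of a list, 8 other binding proteins and receptors had 2 higher and 6 lower with a median of -0.17. The lowest was rxrab, an RXR alpha, which was well above background in only 1 pool and overlapped between groups (adjusted p = 0.458 in limma). The highest was crabp1b, a paralogue of crabp1a, at a fitted 0.31 (adjusted p = 0.722 in limma). Its brightest probe was well above background in only 1 control and 1 crush pool. Crush pool 3 read 6.61 there, against 4.47 to 4.94 in the other crush pools, and the second crabp1b probe differed by 0.04. Among 16 retinol and retinal oxidoreductases 7 were higher and 9 lower, with a median of -0.09 that turned to 0.04 with median scaling. The extremes there were rdh1, a retinol dehydrogenase, well above background in 1 pool, at 4.22 to 4.77 in control and 3.75 to 4.14 in crush pools (adjusted p = 0.10 in limma), and dhrs9, a short-chain retinol dehydrogenase, at 0.30 (adjusted p = 0.437). The 2 measured receptor co-regulators of 11 listed, ncoa2 and ncor1, which activate and repress receptor targets, both differed by -0.26 (adjusted p = 0.375 and 0.349 in limma).

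**Figure D4:**
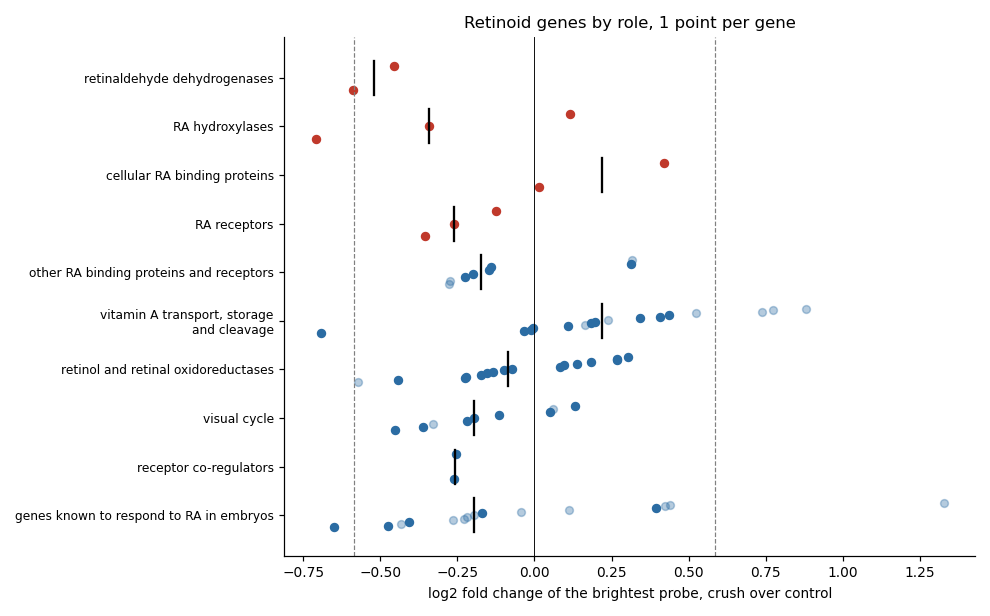
Log2 fold change (crush over control) of the brightest probe of each gene, 1 point per gene, by role: the 10 RA genes in red and the wider lists in blue, pale where the probe was not well above background on all arrays, with a black bar at the median of a role and dashed lines at a 1.5-fold change. Most points lie between the dashed lines, and hoxb5a at 1.33 is the farthest to the right.

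Vitamin A transport was the list with the most genes higher, 12 of 16 with a median of 0.22 and no call (10 to 14 of 16 under the other scalings and background corrections). Of these 16 brightest probes, 10 were well above background on all arrays and 1 on none. Probes of a gene could differ in sign, as in stra6l, at 0.74 on its brightest probe and -0.45 on the other. Rbp4, the retinol carrier of blood, read 11.08, 11.15, 11.00 and 9.89 in control pools and 10.37, 9.61, 10.50 and 9.88 in crush pools. Control pool 4 lay with the low crush pools, and the difference was -0.69 (SE 0.31, adjusted p = 0.271 in limma). At the other end, rbp2a, a cellular retinol binding protein, was well above background on no array and had an adjusted p of 0.0949 in limma. Rbp4l, called purpurin, a retinol binding protein of fish photoreceptors studied in optic nerve regeneration, sat at the top of the signal scale on its brightest probe, where quantile normalisation gave 4 of the 8 pools the identical value of 18.97, so no difference can be read there. Its other probes, A_15_P745541 and A_15_P679411, differed by -0.23 (SE 0.13, adjusted p = 0.370) and -0.12 (SE 0.11, adjusted p = 0.581 in limma). They read 18.30 to 18.89 and 18.00 to 18.30, also near the top of the scale, so the same limit may apply to them.

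Retinoid genes of the pigment epithelium varied more among control pools than between groups. Stra6, the membrane receptor that takes up retinol, read 11.53, 13.75, 13.36 and 11.57 in control pools and 12.84, 12.97, 12.90 and 13.25 in crush pools. Rpe65a, the isomerohydrolase of the visual cycle, read 14.18, 16.62, 15.51 and 13.76 in control pools and 14.86, 14.34, 14.56 and 15.44 in crush pools. Both were high in control pools 2 and 3 and low in control pools 1 and 4, as were rgrb, rdh5 and rlbp1b on their brightest probes. Not every retinoid probe followed. Lrata, of the vitamin A transport list, read 6.47 in control pool 4, beside 6.42 and 6.60 in control pools 2 and 3. The dimmest rgrb probe read 6.18 in control pool 1 and 5.79 in control pool 2. Cyp27c1, which converts vitamin A1 to A2 in fish, did follow. It read 10.04, 14.12, 12.44 and 11.44 in control pools and ran from 10.99 to 12.95 after crush. The melanosome genes pmela and tyrp1b were also higher in control pools 2 and 3 than in control pools 1 and 4. Tyrp1b read 14.43 and 13.93 in control pools 2 and 3 against 13.22 and 12.86 in pools 1 and 4. Pmela in control pool 3 was only 0.08 above its mean over all pools. The mean over the 7 measured pigment epithelium markers was 8.56 to 9.43 in control pools and 8.64 to 9.42 in crush pools, and the part of pigment epithelium carried over at dissection was not tested. Apart from rgrb, these genes were picked for description with their values known. In the visual cycle list 3 of 9 were higher and 6 lower with a median of -0.20, from rbp3, the retinoid carrier between photoreceptors and pigment epithelium, at -0.45 (adjusted p = 0.217 in limma) to rgrb, an opsin of the pigment epithelium, at 0.13 (adjusted p = 0.924).

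Genes known to respond to RA in embryos gave the pathway's only calls. These were 2 of the 66 wider genes measured, close to the 3.02% of all genes with a symbol called higher. Of 15 measured, hoxb5a and hoxb5b, homeobox genes that RA activates in the hindbrain and spinal cord, had at least 1 probe called higher. On the brightest probes the list had 5 higher and 10 lower with a median of -0.20, and hoxb5b was counted there among the lower. Of these 15 brightest probes, 5 were well above background on all arrays and 4 on none. Hoxb5a and hoxb5b were both dim. On the hoxb5a probe A_15_P630616, control pools read 2.86, 3.14, 3.27 and 3.13, none well above background, and crush pools read 5.44, 6.26, 6.23 and 4.78, of which 3 were. Every crush pool exceeded every control, and the signal was at least 3.22-fold higher at the background correction used here (adjusted p = 0.00479 in limma). The size depends on that correction: the fitted difference of 2.58 was 1.48 with the deposited log2 values, 1.23 without background correction and 0.82 at a normexp offset of 50, with the call kept in each. Of the other hoxb5a probes, the brightest differed by 1.33 (adjusted p = 0.204 in limma), and A_15_P654881 was well above background on no array, at 3.27 to 3.80 in control and 3.32 to 4.59 in crush pools (adjusted p = 0.300 in limma).

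Hoxb5b passed on 2 of 3 probes. A_15_P632471 read 3.39, 2.99, 3.89 and 3.99 in control pools and 5.65, 6.07, 6.40 and 5.39 in crush pools, at least 3.69-fold higher (adjusted p = 0.00469 in limma), with 0 control and 4 crush pools well above background. A_15_P131581 read 3.60, 3.08, 3.09 and 3.13 against 4.58, 4.69, 5.26 and 4.57 (adjusted p = 0.00496 in limma). Only 1 crush pool was well above background there, and no fold is given. The fitted differences of 2.31 and 1.55 were 1.41 and 0.78 with the deposited log2 values and 0.82 and 0.39 at an offset of 50. The bound on A_15_P632471 thus also holds only for the correction used here, and A_15_P131581 lost its call at that offset. The groups were separate on both, whereas the brightest hoxb5b probe (A_15_P654891) overlapped and differed by -0.20 (adjusted p = 0.847 in limma), so neither gene was called where the brightest probe alone decided. With the probes of each gene averaged, dim ones included, hoxb5a differed by 1.48 (SE 0.28, adjusted p = 0.0237 in limma). Hoxb5b then differed by 1.22 (SE 0.19, adjusted p = 0.0108 in limma). Those means contain the probes already called, so they give no separate support. At the other end of the list, nr2f5, a COUP-TF orphan receptor, read 10.77, 10.43, 10.67 and 10.81 in control pools and 10.47, 9.95, 9.95 and 9.72 in crush pools. Crush pool 1 lay just inside the control range, and the difference was -0.65 (SE 0.17, adjusted p = 0.0818 in limma). Without crush pool 1, the highest crush pool, the difference necessarily grew and passed the thresholds.

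**Figure D5:**
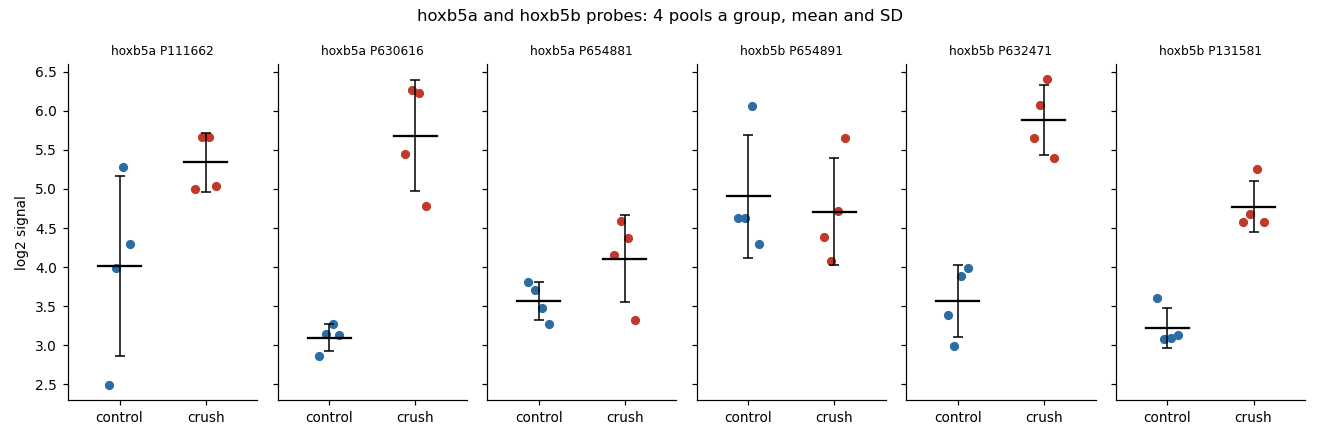
Log2 signal of the 3 hoxb5a and 3 hoxb5b probes in the 4 control (blue) and 4 crush (red) pools, with a horizontal bar at the mean and an error bar of 1 SD. Groups are apart on hoxb5a A_15_P630616 and on hoxb5b A_15_P632471 and A_15_P131581 and overlap on the other 3 probes.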

How the data were processed

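Retinal RNA of 8 pools was measured on one-colour Agilent zebrafish arrays (Cy3). The scanner files were used as deposited: for every spot they hold the median fluorescence intensity, the median intensity of the local background, a processed signal and marks for saturated, outlying and well-above-background spots, with no normalisation between arrays. The authors also deposited log2 values made by normal-exponential background correction and quantile normalisation in limma, and these served as an alternative. Groups and pool numbers came from the sample titles, and 0 columns were left unmapped.

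From the median intensities, normexp (offset 0) removed the background. After control spots and spots marked as outliers had been taken out, arrays were quantile normalised and the spots of a probe averaged, giving 43603 probes. The 43601 probes with at least 2 values per group went into a two-sided moderated test (limma 3.58.1, lmFit then eBayes, R 4.3.3) that had no covariates, with Benjamini-Hochberg adjustment. Thresholds followed the study's methods. Some probes were well above background on no array of a group. A called probe of this kind was given a lower bound on its fold only where most arrays of the other group were well above background. That bound depends on the background correction. For any other probe of this kind, pool values or an adjusted p are given. Symbols came from a RefSeq table of zebrafish assembly GRCz12tu through unversioned accessions: 25598 probes (58.7%) matched, for 13143 genes. A gene's single value is read from the probe with the highest mean log2 signal, its brightest.

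Genes named are all 10 RA genes with every probe, every wider-pathway gene called, and the genes with the lowest and the highest difference of each list; any other was named after its values were seen. The members and lists were chosen with earlier results of these data known. On simulated data for 43192 probes, 200 probes brighter than the median control signal were changed by 1 on the log2 scale. Of these, 148 (74%) were recovered with 8 false calls, and 0 were called with none changed. The simulated noise was independent between arrays and held no slide effect. The 74% does not cover dim probes or smaller differences. The number of arrays, 4 per group, limits the precision. Same-numbered pools did not clearly deviate together, and the main fit held no pairing. Whether pools came from separate operating days is not given in the sources used here. Figures were drawn with Python 3.11.15 and matplotlib 3.10.9.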

Additional observations from a re-analysis of the deposited data

Results flagged for a closer look

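In 2 of the 46 groups of 4 pools examined, 1 pool lay far from the other 3 by Dixon's criterion, which chance alone meets in about 1 in 20 groups. On the brightest aldh1a3 probe, crush pool 4 read 6.90 on the log2 scale and the nearest crush pool 7.61, a gap of 0.847 of the range of the group. On the crabp2a probe A_15_P750771, control pool 3 read 7.79 and the nearest control pool 8.41, a gap of 0.905 of the range. Neither pool had an outlier or saturated spot on these probes.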

How the results depend on the processing

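Every RA gene was refitted under 18 other settings. Of 407 values, 403 stayed on the same side of the thresholds and 4 crossed them, all on crabp2a. The count of RA probes called was 0 and became 1 with probes kept only where at least 4 arrays, or all arrays of a group, were well above background; the count of RA genes moved in the same way from 0 to 1. This was a crabp2a probe that met both filters only through the crush pools, where it is high. Without 1 pool, 0 to 2 RA probes and 0 to 1 RA genes were called, the highest counts being without control pool 4. The probes called there were dim crabp2a probes on which control pool 4 was the highest control. Sign changes occurred only in uncalled values of crabp1a, cyp26a1, cyp26b1, cyp26c1 and rarab. In the wider pathway, 2 genes became 4 with median scaling (rxrab and rdh1 were then lower) and 1 with either filter on dim probes (hoxb5b). The hoxb5b probe kept there, A_15_P632471, met both filters only through the crush pools, where it is high, so that this call gives no support. The count was 0 where the brightest probe alone decided and 2 to 3 without 1 pool (nr2f5 was added without crush pool 1, its highest crush pool). With the probes of a gene averaged, hoxb5a and hoxb5b were called. The hoxb5b probe A_15_P131581 lost its call at an offset of 50, where its difference was 0.39. Over all probes, 1201 calls became 2380 with median scaling (1176 higher, 1204 lower), 909 at an offset of 50, and 479 (without crush pool 2) to 1534 (without control pool 4) with a pool left out. Of the calls, 68.7% were higher after crush, against 49.4% with median scaling and 43.8% with the processed signal at the 75th percentile, where the median of all probes shifted to -0.13. Same-numbered pools had deviations correlated at 0.01, -0.12, 0.02 and 0.18, which cannot show whether the numbers pair pools. With the replicate block 482 probes were called, 0 RA genes and 2 wider genes. The causes of these moves were not tested. Signal over background limits the dim crabp2a, cyp26b1, cyp26c1 and hoxb5 probes.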
